A study of Homo sapiens with 4 samples.

Results

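The nuclear genes for subunits of respiratory complexes II, III, IV and V, together with cytochrome c, were read in RNA-seq libraries of CEBPG knockdown and control cells. Genes were taken by symbol: SDHA to SDHD for complex II, names beginning with UQCR plus CYC1 for complex III, CYCS for cytochrome c, names beginning with COX4 to COX8 for complex IV, and names beginning with ATP5 for complex V. This gave 45 genes out of 16504 with values, namely 4, 10, 1, 12 and 18 in that order. The pseudogenes ATP5F1EP2 and UQCRBP1 matched by name and were left out.

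These complexes sit in the inner mitochondrial membrane. Complex II, succinate dehydrogenase, oxidises succinate in the citric acid cycle and passes the electrons to coenzyme Q. Complex III hands them to cytochrome c, complex IV reduces oxygen with them, and complex V, the ATP synthase, uses the proton gradient that complexes III and IV help to build. Complex II is made from nuclear genes alone, whereas complexes III, IV and V also hold subunits encoded in mitochondrial DNA, which were not analysed here.

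All 4 libraries were labelled as NB4, a line established from human promyelocytic leukemia. Of these, 2 were controls, labelled NC, and 2 were CEBPG knockdown libraries, labelled CEBPG3. In the study, lentiviral short hairpin RNAs were used and infected cells were selected with puromycin, and the 3 in the label was read as the third CEBPG hairpin, which is an assumption. A single hairpin then stands for the knockdown. Nothing says whether replicates were separate cultures, so p-values measure the spread between these libraries only.

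CEBPG, a leucine-zipper transcription factor, was at 17.1 and 18.1 FPKM (fragments scaled by transcript length and by the mapped reads of the library) in the controls and at 6.91 and 7.96 FPKM in the knockdown, 42.2% of the control mean. FPKM summed to between 346170 and 367105 per library, and read depth was unknown. The labelled cell type was checked against marker lists drawn up from general knowledge. Of 12 erythroid genes, 10 exceeded 10 FPKM in every library, with HBG2 at a mean of 3308 FPKM, whereas of 9 myeloid genes LYZ, SPI1 and CD68 exceeded 10 FPKM in every library and PRTN3, AZU1, CSF3R and ITGAM stayed under 1 FPKM in every library. The summed erythroid markers ranged from 7607 to 8051 FPKM in the controls and from 8659 to 9227 FPKM in the knockdown, and the summed myeloid markers from 61.3 to 62.5 and from 88.5 to 91.4 FPKM. Within the myeloid list CD68 was at 20.6 and 18.5 FPKM in the controls and 47.3 and 43.9 FPKM in the knockdown, whereas LYZ was at 20.1 and 18.1 against 15.0 and 15.5 FPKM. These levels go against the labelled cell type. The profile was shared by all 4 libraries, so no result could be given without it, and its part in the results was not tested. In bulk RNA, fewer cells of a type and less RNA per cell cannot be told apart.

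The largest change belonged to complex II, so the region upstream of its genes is shown first. RefSeq (GRCh38.p14) gave an upstream sequence for 3 of the 4 genes, SDHD, SDHA and SDHB. The letters run 5′ to 3′ on the strand of the gene, from base 130 to base 31 before the start site. Capitals mark matches to the letters of the NRF1 motif or of the ETS factor GABPA (CCGGAAG, or CTTCCGG on the other strand). NRF1 and GABPA are general activators of nuclear respiratory genes.

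SDHD: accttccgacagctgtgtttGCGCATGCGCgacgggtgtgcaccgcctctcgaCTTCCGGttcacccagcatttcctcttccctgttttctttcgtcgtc

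SDHA: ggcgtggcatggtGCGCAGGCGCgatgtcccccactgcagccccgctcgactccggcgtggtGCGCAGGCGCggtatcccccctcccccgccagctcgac

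SDHB: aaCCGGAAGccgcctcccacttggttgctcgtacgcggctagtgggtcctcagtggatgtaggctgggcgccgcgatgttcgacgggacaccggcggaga

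These stretches lie at chr11:112086743-112086842 on the plus strand for SDHD, chr5:218190-218289 on the plus strand for SDHA and chr1:17054063-17054162 on the minus strand for SDHB. SDHD held NRF1 letters 110 bases before its start and ETS letters 77 bases before it. SDHA held NRF1 letters only, 117 and 68 bases before the start in the stretch shown, and SDHB, of these letters, held those of ETS only. Neither the C/EBP-ATF response element (TGATGNAA) nor the C/EBP letters (TTGCNNAA) were found on either strand within 250 bases before to 50 bases after the start of these 3 genes.

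SDHD encodes the small membrane anchor of complex II, which with SDHC holds heme and binds coenzyme Q. The gene spans positions 112086873 to 112095794 of chromosome 11 (plus strand). Its level was 91.8 and 89.0 FPKM in the controls against 40.5 and 39.1 FPKM after knockdown. The groups were far apart, and the replicates of each group lay close together. The knockdown mean was 39.8 ± 1.01 FPKM (SD, n = 2) against 90.4 ± 2.00 FPKM (SD, n = 2), so that 44.03% was left. On the log2(FPKM + 1) scale this was a fold change of -1.16 (standard error 0.057, limma adjusted p = 0.00035). In GENCODE 44 an SDHD exon overlaps one of another protein-coding gene on the same strand, listed without a symbol, by up to 145 bases. SDHA has such an overlap of up to 172 bases. Reads in these stretches cannot be assigned to either gene. Exons of further members also overlap those of other genes, some of them on the same strand. Of the 10968 genes tested, 20 had a lower log2 fold change than SDHD.

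None of the other complex II subunits was called, although SDHB was called lower with every column scaled to one sum (-0.16, limma adjusted p = 0.0427). SDHA, the flavoprotein that oxidises succinate, was at 43.9 and 41.0 FPKM in the controls and at 44.1 and 43.0 FPKM in the knockdown, and the groups overlapped. SDHB, the iron-sulfur subunit, was at 83.6 and 75.8 FPKM against 73.8 and 71.1 FPKM. SDHC, the large membrane anchor, was at 28.9 and 29.6 FPKM against 26.8 and 27.1 FPKM. For SDHB and SDHC both knockdown libraries lay just below both controls. The log2 fold changes were 0.037 for SDHA (95% interval -0.11 to 0.18), -0.14 for SDHB (-0.30 to 0.024) and -0.11 for SDHC (-0.25 to 0.023), with adjusted p of 0.706, 0.192 and 0.201 in limma. SDHB was at -0.065 without control 1 and at -0.21 without control 2.

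**Figure D1:**
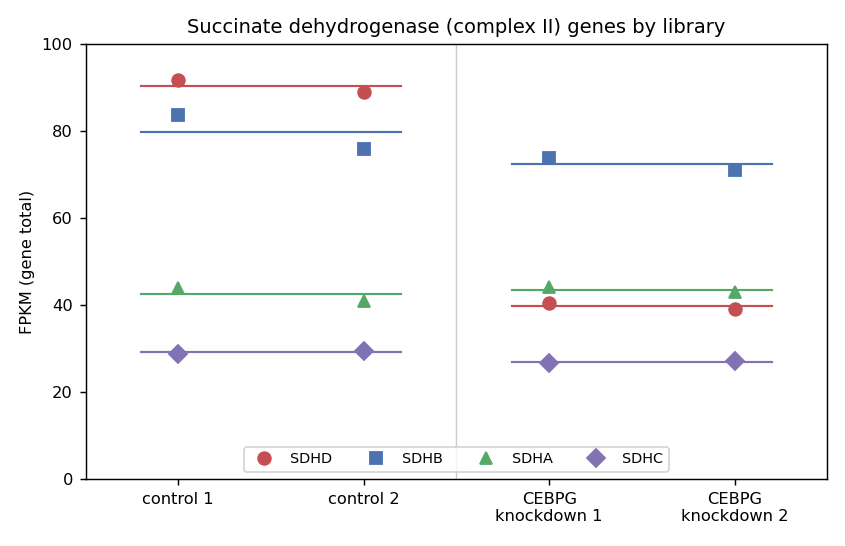
FPKM of the 4 complex II genes (vertical axis) in each library (horizontal axis), with points for libraries and short lines for group means. SDHD had the highest level of the 4 genes in both controls and fell below SDHA in both knockdown libraries, while SDHA, SDHB and SDHC were at 102.6%, 90.8% and 92.2% of their control means.

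The order of levels within complex II therefore changed. FPKM is scaled by length, which allows a rough comparison of levels between genes. Reads shared with copies or overlapping genes could not be separated. In the controls the order was SDHD, SDHB, SDHA and SDHC, and in the knockdown it was SDHB, SDHA, SDHD and SDHC. The ratio of SDHD to SDHA was 2.09 and 2.17 in the controls and 0.919 and 0.908 in the knockdown, and the ratio of SDHD to SDHC was 3.18 and 3.01 against 1.51 and 1.44. Neither ratio overlapped between the groups, but with 2 libraries each an exact permutation test cannot go below p = 0.333 (2-sided), the value found for both. Summed over the 4 genes, complex II was at 248 and 235 FPKM in the controls and at 185 and 180.3 FPKM in the knockdown. SDHD made up 85.6% of that drop. Without SDHD the sums were 156 and 146 FPKM against 145 and 141 FPKM.

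SDHD stands head to head with TIMM8B, a gene of mitochondrial protein import, with 116 bases between them in RefSeq. TIMM8B, read after the fall of SDHD had been seen, was at 69.4 and 65.8 FPKM in the controls and 75.6 and 72.7 FPKM in the knockdown, a log2 fold change of 0.13 (limma, adjusted p = 0.161). Both knockdown libraries of TIMM8B lay above both controls, by little, where those of SDHD lay far below. Of the other protein-coding genes within 65000 bases that were tested, DLAT, a subunit of pyruvate dehydrogenase, was called lower (-0.29, limma adjusted p = 0.0231), a call lost without control 1, knockdown 1 or knockdown 2 (adjusted p 0.0556 to 0.124, with log2 fold changes of -0.35 to -0.23 over all 4 fits that left out 1 library). NKAPD1 (-0.18, 0.0956), PIH1D2 (-0.26, 0.294) and DIXDC1 (0.073, 0.670) were not called. IL18 was under 0.1 FPKM in every library and was not tested.

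Over the whole set, 44 of the 45 genes reached a mean of 1 FPKM and were tested. Among them 7 were called (limma, adjusted p under 0.05), against 20.9% of all tested genes. The share of members called was 15.9%. SDHD, COX7B, ATP5MF, UQCRH and COX4I1 were lower, 11.4% of members against 9.99% of all genes. COX7A2L and ATP5IF1 were higher, 4.55% against 10.9%. Among the 3101 tested genes at levels between the lowest and the highest tested member (20.6 to 794 FPKM), 25.3% were called, 13.4% lower and 12.0% higher. The members' shares lay below these, but the share of all members called exceeded that of all genes when columns were scaled to one sum (31.8% against 24.4%). Of the 7, SDHD alone changed by more than 0.3 on the log2 scale.

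The direction of the small differences leaned downward. The median log2 fold change was -0.10 over the 44 tested members, and -0.10 over the 43 without SDHD, against 0.015 over all tested genes. It was -0.062 without control 1, -0.094 without control 2, -0.11 without knockdown 1 and -0.059 without knockdown 2. A log2 fold change below 0 was found for 31 members (70.5%), against 47.3% of all genes. Both knockdown libraries lay below both controls for 23 members (52.3%), against 30.5% of all genes. Both lay above for 3 members (6.82%), against 34.3%. The groups thus did not overlap for 26 members, against 64.8% of all genes, and overlapped for 18 members. Among the genes at member levels, 35.2% had both knockdown libraries below both controls and 33.6% had both above. Of all FPKM, the members held 2.43% in both controls, and 2.25% and 2.22% after knockdown.

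**Figure D2:**
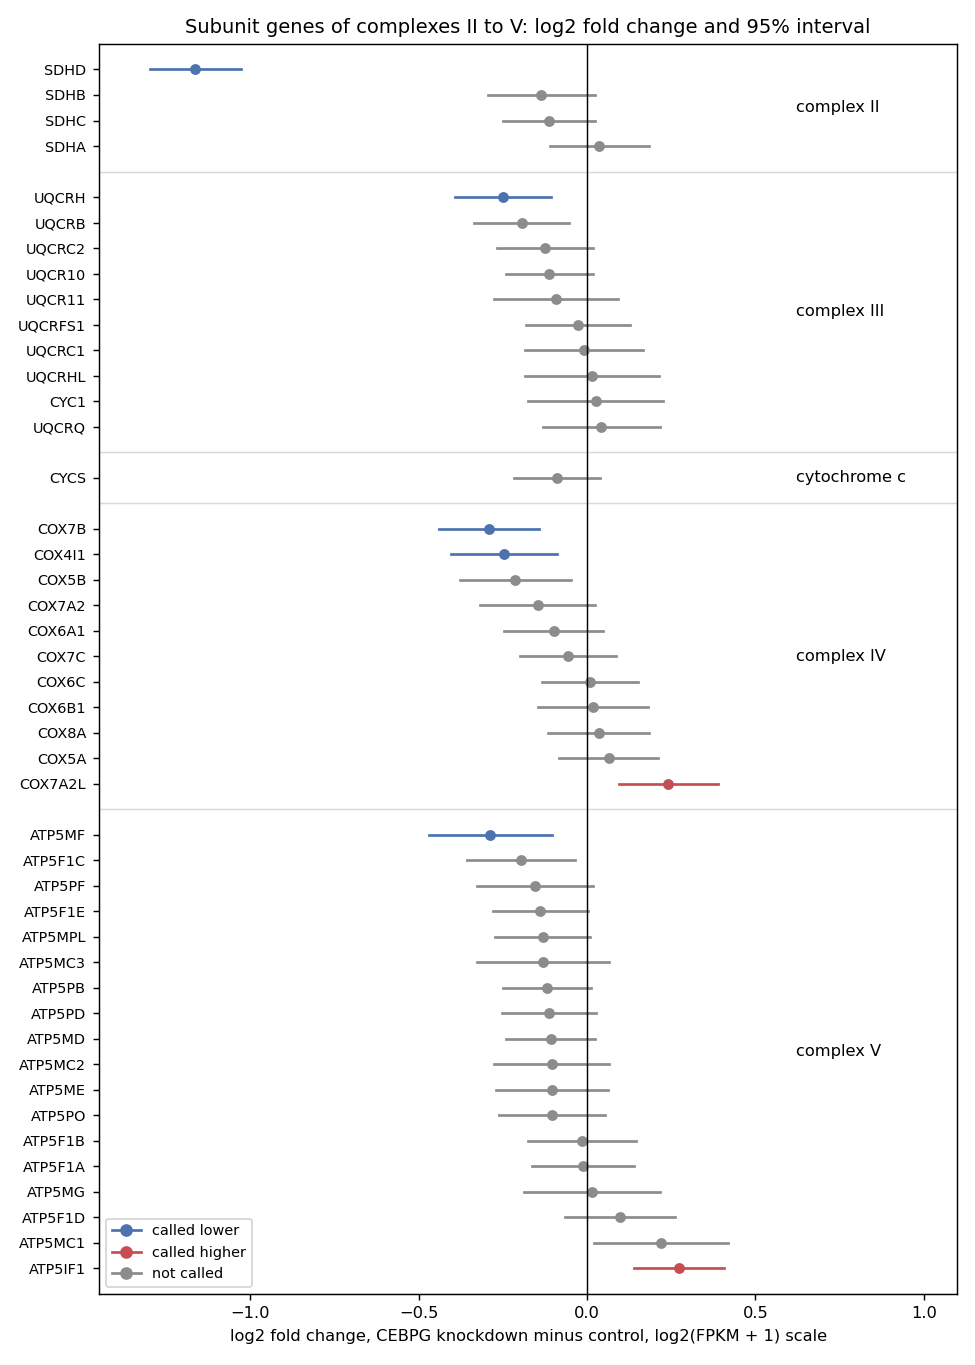
Log2 fold change (horizontal axis, knockdown minus control on the log2(FPKM + 1) scale) of the 44 tested genes, by complex, with 95% intervals from limma. SDHD stands at -1.16 and the other 43 genes lie between -0.29 and 0.27, with blue for genes called lower and red for genes called higher.

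Most of these calls were lost in some fits with 1 library left out. Each such fit leaves 1 library in a group, and fewer of all genes were called as well. The losses therefore cannot show that a single library made a call. Without control 1, 4 members were called (9.09%, against 17.6% of all genes in that fit), and without control 2 there were 5 (11.4%, against 14.7%). Without knockdown 1 or without knockdown 2 the number was 1 (2.27%, against 7.52% and 7.64%), and that gene was SDHD. The other 6 calls had adjusted p between 0.0184 and 0.0418 in limma with all 4 libraries, and were lost without knockdown 1 or without knockdown 2. In those fits the 4 lower genes were between -0.36 and -0.18 and the 2 higher genes between 0.23 and 0.29. With all 4 libraries the lower genes were between -0.29 and -0.25 and the higher genes at 0.24 and 0.27. The calls on ATP5MF, COX4I1 and UQCRH were also lost without control 1, and those on COX4I1 and COX7A2L without control 2. With 1 library left out, ATP5MF ranged from -0.36 to -0.21 and COX4I1 from -0.31 to -0.18. UQCRH ranged from -0.28 to -0.22 and COX7A2L from 0.19 to 0.30. With every column scaled to one sum 14 members were called, 2 higher and 12 lower, and the lower calls made up 27.3% of members against 13.0% of all genes. With median-ratio scaling there were 10, 2 higher and 8 lower, which was 22.7% against 24.5%, and for lower calls 18.2% against 12.9%. ATP5F1C, COX5B and UQCRB were called lower under both of these scalings, and ATP5MPL, COX6A1, COX7A2 and SDHB under scaling to one sum only.

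**Figure D3:**
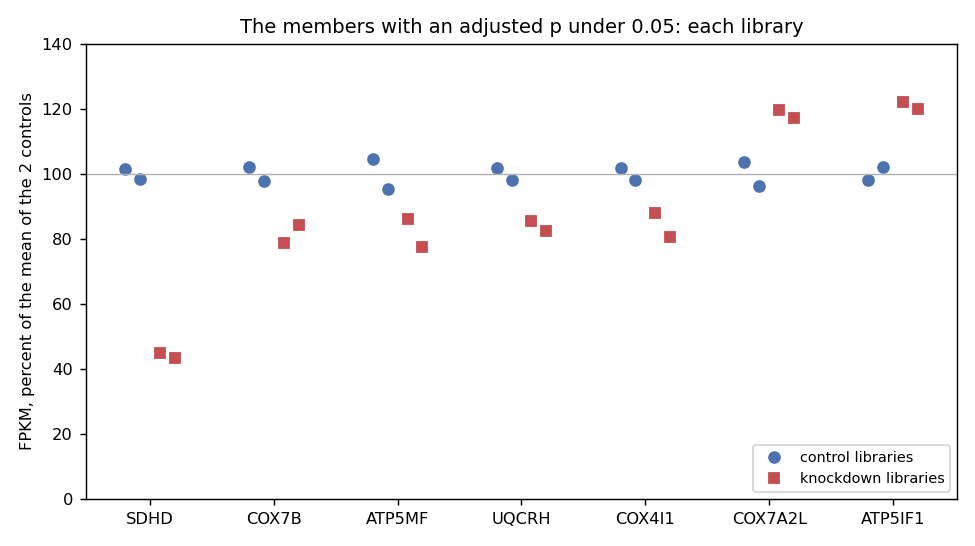
FPKM of the 7 called genes in each library, as a percent of the mean of the 2 controls for that gene (vertical axis starting at 0). The knockdown libraries of SDHD lie near 44% of the control mean, whereas those of the other 6 genes lie much nearer to 100%.

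In complex III, 1 of the 10 genes passed the test, against 20.9% of all tested genes. UQCRH, the acidic hinge protein that helps cytochrome c to dock, was at 638 and 615 FPKM in the controls and at 536 and 517 FPKM in the knockdown, with no overlap. This made a log2 fold change of -0.25 (standard error 0.060, limma adjusted p = 0.0303). UQCRHL, on chromosome 1 at positions 15807374 to 15807649, is a near-identical copy of UQCRH, so the split of reads between them is uncertain. UQCRHL was at 22.1 and 18.9 FPKM against 20.3 and 21.0 FPKM, and the groups overlapped. Summed, both genes gave 660 and 634 FPKM in the controls and 556 and 538 FPKM in the knockdown.

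The redox subunits of complex III that the nucleus encodes were not called. CYC1, which carries the heme of cytochrome c1, was at 273 and 242 FPKM in the controls and 277 and 247 FPKM in the knockdown, with overlap and a log2 fold change of 0.025 (95% interval -0.18 to 0.23). UQCRFS1, the Rieske iron-sulfur protein, was at a log2 fold change of -0.026 (-0.18 to 0.13), and the core protein UQCRC1 at -0.0091 (-0.19 to 0.17). The other core protein, UQCRC2, was at 71.8 and 69.1 FPKM against 62.7 and 66.4 FPKM (log2 fold change -0.12, limma adjusted p = 0.182). Of the small accessory subunits, UQCRB came closest to a call at 36.8 and 34.9 FPKM against 31.0 and 31.5 FPKM (log2 fold change -0.19, limma adjusted p = 0.0601). It was called lower with a minimum mean of 5 FPKM (0.0482), median-ratio scaling (0.0229) or scaling to one sum (0.0257). UQCR10, UQCR11 and UQCRQ were at log2 fold changes of -0.11, -0.093 and 0.042 and were not called. With 1 library left out UQCR11 ranged from -0.18 to -0.0046.

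CYCS encodes cytochrome c, the mobile carrier between complexes III and IV, which also triggers caspases once released from mitochondria. It was at 73.5 and 74.2 FPKM in the controls and at 69.2 and 69.5 FPKM in the knockdown. Both knockdown libraries were lower, by little. The log2 fold change was -0.089 (95% interval -0.22 to 0.039) with an adjusted p of 0.275 in limma.

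In complex IV, cytochrome c oxidase, 3 of 11 tested genes passed the test (27.3%, against 20.9% of all tested genes and 25.3% of those at member levels). COX7B, a small structural subunit encoded on the X chromosome, was at 249 and 239 FPKM in the controls and at 192 and 206 FPKM in the knockdown (log2 fold change -0.29, standard error 0.062, limma adjusted p = 0.0207). COX4I1, the subunit through which ATP inhibits the enzyme, was at 429 and 414 FPKM against 371 and 340.2 FPKM (-0.25, 0.066, 0.0417). COX7A2L was higher, at 74.6 and 69.2 FPKM in the controls and 86.0 and 84.2 FPKM in the knockdown (0.24, 0.061, 0.0357). COX7A2L, also named SCAF1, links complexes III and IV into supercomplexes and is not a fixed subunit of the enzyme. None of the 3 genes overlapped between the groups. Exons of COX4I1 overlap those of EMC8, on the other strand, by 4 bases.

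COX7A2, a relative of COX7A2L that is a regular subunit, was at 166 and 152 FPKM in the controls and at 150 and 138 FPKM in the knockdown (log2 fold change -0.15, limma adjusted p = 0.188), and was called lower with columns scaled to one sum (0.0326). The ratio of COX7A2L to COX7A2 was 0.448 and 0.454 in the controls and 0.573 and 0.611 in the knockdown. The ratios did not overlap, and the exact permutation test gave p = 0.333, the smallest possible here. COX5B, a zinc-binding subunit on the matrix side, was at 374 and 370.03 FPKM against 339 and 304 FPKM and was not called (-0.21, limma adjusted p = 0.0713). It was called lower with median-ratio scaling (0.0357) or scaling to one sum (0.0127). With 1 library left out COX7A2 ranged from -0.21 to -0.083 and COX5B from -0.29 to -0.14.

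The remaining complex IV genes did not pass the test. COX7C had the highest level in the complex, with 734 and 709 FPKM in the controls and 701 and 686 FPKM in the knockdown (log2 fold change -0.057). COX6A1, COX6B1, COX6C, COX8A and COX5A were at log2 fold changes of -0.099, 0.018, 0.0095, 0.035 and 0.064, with adjusted p from 0.285 to 0.924 in limma. COX6A1, the widely expressed form of its subunit, was at 313 and 296 FPKM in the controls and 291 and 277 FPKM in the knockdown, and COX8A at 381 and 353 against 378 and 374 FPKM. COX6A1 was called lower with columns scaled to one sum (-0.12, limma adjusted p = 0.0405). With 1 library left out COX7C ranged from -0.081 to -0.032, COX6A1 from -0.14 to -0.060 and COX5A from 0.0086 to 0.12. COX6B2, the testis form of COX6B1, was at or under 0.108 FPKM in every library and was not tested. COX6B1 itself was at 302 and 277 FPKM in the controls and 303 and 283 FPKM in the knockdown. Other tissue forms (COX4I2, COX6A2, COX7A1, COX7B2 and COX8C) were not analysed here. NDUFA4, which bears a complex I name but belongs to complex IV, was no member by the rule and was at 63.9 and 60.8 FPKM against 58.0 and 58.3 FPKM (-0.097, limma adjusted p = 0.263).

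In complex V, 2 of 18 genes passed the test, in opposite directions (11.1%, against 20.9% of all tested genes). ATP5MF, the small membrane subunit f of the ATP synthase, was at 391 and 357 FPKM in the controls and at 322 and 290.4 FPKM in the knockdown (log2 fold change -0.29, standard error 0.077, limma adjusted p = 0.0418). It shares exons with PTCD1 and with a readthrough gene that joins both, so its value is uncertain. ATP5IF1 encodes the inhibitor that binds the enzyme and keeps it from running in reverse and using up ATP. It was at 82.0 and 85.3 FPKM in the controls and at 102 and 100.4 FPKM in the knockdown (0.27, 0.056, 0.0184). Both knockdown libraries of ATP5IF1 lay above both controls.

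No subunit of the catalytic F1 head was called, although ATP5F1C was called lower with median-ratio scaling or scaling to one sum (limma adjusted p = 0.0307 and 0.0103). ATP5F1B, the beta subunit that makes ATP and the most abundant member of all, was at 831 and 765 FPKM in the controls and 800 and 780 FPKM in the knockdown (log2 fold change -0.014, 95% interval -0.17 to 0.15). ATP5F1A, the alpha subunit, was at a log2 fold change of -0.012 (-0.16 to 0.14). ATP5F1C, the gamma subunit that forms the rotating shaft, was at 160 and 147 FPKM against 139 and 129 FPKM (-0.20, limma adjusted p = 0.0826). ATP5F1D (delta) and ATP5F1E (epsilon) were at 0.099 and -0.14, ATP5F1D at 0.039 to 0.16 with 1 library left out. The ratio of the inhibitor ATP5IF1 to ATP5F1B was 0.0987 and 0.112 in the controls and 0.128 and 0.129 in the knockdown, without overlap, with the smallest possible exact permutation p of 0.333.

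ATP5MC1, ATP5MC2 and ATP5MC3 encode the same mature c subunit, the protein that forms the rotor ring in the membrane. ATP5MC1 was at 83.3 and 80.8 FPKM in the controls and at 104 and 88.1 FPKM in the knockdown (log2 fold change 0.22, limma adjusted p = 0.109). ATP5MC2 was at 177 and 168 FPKM against 169 and 152 FPKM (-0.11, limma adjusted p = 0.331). ATP5MC3 was at 279 and 239 FPKM against 240.2 and 231 FPKM (-0.13, 0.297). The groups of ATP5MC1 did not overlap, and those of the other genes did. With 1 library left out these values ranged from 0.10 to 0.34 for ATP5MC1, from -0.19 to -0.026 for ATP5MC2 and from -0.24 to -0.018 for ATP5MC3. The sum of the 3 genes was 540 and 487 FPKM in the controls and 513 and 471 FPKM in the knockdown, which overlapped. ATP5MC1 supplied 15.4% and 16.6% of it in the controls and 20.2% and 18.7% in the knockdown. This share did not overlap between groups, with an exact permutation p of 0.333, the smallest possible.

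The stalk subunits and some of the membrane subunits were not called. ATP5PB, ATP5PD, ATP5PF and ATP5PO, which make up the peripheral stalk, were at log2 fold changes of -0.12, -0.11, -0.15 and -0.10. ATP5MPL, ATP5MD and ATP5ME were at log2 fold changes of -0.13, -0.11 and -0.10, and ATP5MG at 0.014. None of these 8 genes was called, with adjusted p from 0.157 to 0.923 in limma. ATP5MPL was called lower with columns scaled to one sum (-0.15, limma adjusted p = 0.0371). ATP5PB, ATP5PD, ATP5PF, ATP5PO, ATP5MPL and ATP5MD had both knockdown libraries below both controls, while ATP5ME and ATP5MG overlapped. Over all tested genes 30.5% lay lower without overlap. With 1 library left out, ATP5PF ranged from -0.24 to -0.070, ATP5PO from -0.16 to -0.053 and ATP5ME from -0.18 to -0.026.

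Levels differed widely between genes whose proteins enter the same complex. Within complex V they ran from 86.4 FPKM for ATP5PF to 794 FPKM for ATP5F1B (means of the 4 libraries). Within complex IV the tested genes ran from 78.5 FPKM for COX7A2L to 707 FPKM for COX7C, within complex III from 20.6 FPKM for UQCRHL to 576 FPKM for UQCRH, and within complex II from 28.1 FPKM for SDHC to 76.1 FPKM for SDHB. The alpha and beta subunits, which are present in equal number in the enzyme, stood at 220 and 794 FPKM. In all, 29 members exceeded 100 FPKM, and ATP5F1B ranked 57th of all genes. Summed levels were 1564 and 1458 FPKM for complex III in the controls and 1432 and 1357 FPKM in the knockdown. They were 3263 and 3104 against 3050 and 2929 FPKM for complex IV, and 3756 and 3542 against 3534 and 3371 FPKM for complex V. For complexes III, IV and V the knockdown means of these sums were 92.3%, 93.9% and 94.6% of the control means, and for complex II 75.6%. Control 1 exceeded control 2 in 39 of the 45 members, and its FPKM total was also the larger (366785 against 346170). Likewise knockdown 1 exceeded knockdown 2 in 36 of the 45 members, with a larger FPKM total (367105 against 356783).

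Of the members, 24 were listed as a single transcript and 21 as 2 to 6. SDHD fell through its main transcript, NM_003002, with 97.9% of its signal, at 90.4 and 87.5 FPKM in the controls and 39.6 and 37.4 FPKM in the knockdown. When 15795 transcripts were tested one by one, 25 were called, and of the 70 tested member transcripts this was the only one (log2 fold change -1.19, limma adjusted p = 0.0405). Of ATP5IF1, NM_016311 was at 57.8 and 63.0 FPKM in the controls and 76.8 and 76.7 FPKM in the knockdown, while NM_178191 lay between 21.7 and 23.7 FPKM in all 4 libraries. Neither transcript was called on its own (limma adjusted p = 0.110 and 0.649).

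Transcript values of ATP5MC3 were not stable between replicates. NM_001689 was at 267 FPKM in control 1 and 27.2 FPKM in control 2, and at 33.0 and 84.0 FPKM in the knockdown. NM_001002258 was at 3.69 FPKM in control 1 and 158 FPKM in control 2, and at 158 and 114 FPKM in the knockdown. The transcripts offset each other, so that the gene total kept between 231 and 279 FPKM. No difference between groups can be read from single ATP5MC3 transcripts. Transcripts of ATP5PF also differed in sign, with -0.43 for NM_001003703 and 0.62 for NM_001685, and neither was called (limma adjusted p = 0.185 and 0.384).

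**Figure D4:**
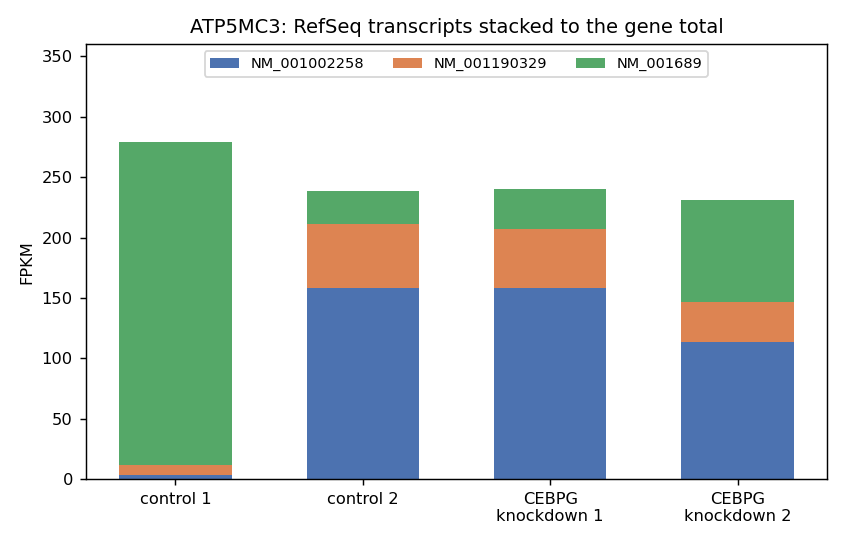
FPKM (vertical axis) of the 3 listed ATP5MC3 transcripts, stacked to the gene total, in each library (horizontal axis). Control 1 consists almost wholly of NM_001689 and control 2 mostly of NM_001002258, while the stacked totals stay between 231 and 279 FPKM.

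Assembly factors, which mature the complexes without being part of them, were read from lists written from general knowledge. All counts here stand against 20.9% of all tested genes called, 9.99% lower and 10.9% higher. Of 29 complex IV assembly factors, 3 were called lower and 2 higher, 17.2% in all. COX17, the chaperone that brings copper to the enzyme, was at 40.5 and 41.1 FPKM in the controls and 28.9 and 25.7 FPKM in the knockdown (log2 fold change -0.56, limma adjusted p = 0.00402). SCO1, which receives copper from COX17, was at 21.0 and 19.2 FPKM against 12.3 and 14.4 FPKM (-0.56, 0.00832). COX19, a further factor of the copper pathway, was higher at 10.8 and 10.2 FPKM against 13.5 and 13.8 FPKM (0.35, 0.0137). The COX17 and SCO1 calls held with any 1 library left out, and that on COX19 was lost without knockdown 1 or knockdown 2 (adjusted p 0.0676 and 0.0739, with 0.31 to 0.39 over all 4 such fits). The other calls were COA6, lower, and SURF1, higher. Both were lost without knockdown 1 or knockdown 2, COA6 also without control 1 and SURF1 also without control 2. Over all 4 such fits COA6 was at -0.25 to -0.20 and SURF1 at 0.22 to 0.32.

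Of 4 complex II assembly factors 1 was called, a list too short to set its share against the 20.9% of all genes. SDHAF2, which attaches the flavin to SDHA, was at 28.6 and 25.1 FPKM in the controls and at 33.9 and 32.2 FPKM in the knockdown (log2 fold change 0.29, limma adjusted p = 0.0406), the opposite direction to SDHD. That call was lost without control 2, knockdown 1 or knockdown 2 (adjusted p 0.106 to 0.192, with 0.20 to 0.38 over all 4 such fits). Of 6 complex III assembly factors LYRM7 was lower (-0.29, limma adjusted p = 0.0298) and TTC19 higher (0.32, 0.0294). The LYRM7 call was lost without any 1 of the 4 libraries, and the TTC19 call without control 1, control 2 or knockdown 1. Over all 4 such fits LYRM7 was at -0.33 to -0.24 and TTC19 at 0.24 to 0.41. Of 5 complex V assembly factors TMEM70, which helps to build the rotor ring, was higher, at 19.4 and 18.6 FPKM against 27.2 and 25.3 FPKM (0.45, limma adjusted p = 0.00613), in every fit that left out 1 library.

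Genes around coenzyme Q and regulators of respiration were read next, against 20.9% of all genes called. Of 13 coenzyme Q synthesis genes COQ9 was lower (log2 fold change -0.41, limma adjusted p = 0.0181) and COQ10B higher (0.36, 0.0149). Of 6 tested genes of other routes by which electrons reach coenzyme Q, 2 were lower. These were DHODH, the mitochondrial step of pyrimidine synthesis (-0.62, limma adjusted p = 0.00457), and ETFB, which carries electrons from fatty acid oxidation (-0.27, 0.0422). DHODH was at 7.60 and 8.52 FPKM in the controls and 4.996 and 4.76 FPKM in the knockdown. Of 13 regulators TFB2M was lower (-0.21, limma adjusted p = 0.0454) and GABPB1, a partner of GABPA, higher (0.35, 0.0243). The DHODH call held with any 1 library left out. The COQ9 call was lost without knockdown 2, and COQ10B without knockdown 1 or knockdown 2. Over all 4 fits that left out 1 library, COQ9 was at -0.51 to -0.32 and COQ10B at 0.35 to 0.37. ETFB was lost without control 1, knockdown 1 or knockdown 2, and was at -0.34 to -0.19 over all 4 such fits. GABPB1 was lost without control 1, control 2 or knockdown 2 (0.27 to 0.43), and TFB2M without any 1 of the 4 libraries (-0.23 to -0.18).

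**Figure D5:**
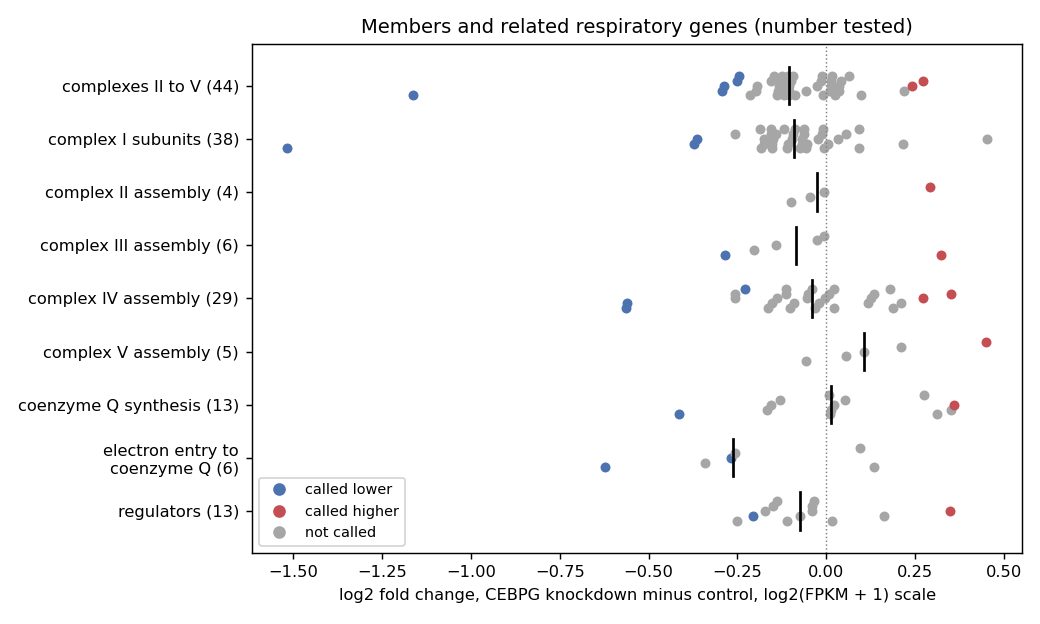
Log2 fold change (horizontal axis, knockdown minus control on the log2(FPKM + 1) scale) of each tested gene of complexes II to V and of 8 related lists, with the number tested in brackets and a black bar at the median. In complexes II to V and in complex I, 1 gene each lies below -1 (SDHD and NDUFAB1) and the rest lie between -0.37 and 0.45.

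Complex I, which feeds electrons from NADH to coenzyme Q, was read from the same libraries. Of its 38 tested subunit genes by name, NDUFA4 included, 3 were called, each lower: NDUFAB1 (log2 fold change -1.52, limma adjusted p = 0.000164), NDUFB5 (-0.37, 0.00841) and NDUFS4 (-0.36, 0.0184). This was 7.89% of the list, against 20.9% of all genes called and 9.99% called lower. The NDUFB5 call was lost without knockdown 1 or knockdown 2, and that on NDUFS4 without knockdown 2. With 1 library left out NDUFB5 ranged from -0.41 to -0.33 and NDUFS4 from -0.44 to -0.28. The median over complex I was -0.091 and 31 of 38 genes were below 0, against -0.10 and 31 of 44 for complexes II to V. Without NDUFA4 the complex I median was -0.088 and 30 of 37 genes were below 0. Whether the groups of complexes differ was not tested. NDUFAB1, the mitochondrial acyl carrier protein, and SDHD were the only genes of either set past a log2 fold change of 1 in size.

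The promoters were searched for letters of general respiratory activators, for those of C/EBP factors and, as a separate motif, for CCAAT. RefSeq promoters, from 250 bases before to 50 bases after the start, were found for 36 of the 45 genes, and both strands were searched. NRF1 letters were in 10 of the 36 (27.8%), against 13.1% of promoters of tested genes and 6.28% of all promoters of that length. ETS letters (CCGGAAG) were in 15 (41.7%), against 22.0% and 10.7%, and YY1 letters (AANATGGCG) were in 6 (16.7%), against 8.02% and 3.37%. The letters CCAAT were in 16 (44.4%), against 37.8% and 35.7%. The C/EBP letters TTGCNNAA were in 1, ATP5MG, and the C/EBP-ATF letters TGATGNAA were in none of the 36, against 6.66% and 1.49% of promoters of tested genes. A match is a run of letters and not a measured site. Of the called members with a promoter, SDHD held NRF1 and ETS letters, UQCRH held CCAAT and ETS letters, COX4I1 held ETS letters, and COX7B, COX7A2L and ATP5IF1 held CCAAT. The matches in COX4I1 and COX7B lie after the start. ATP5MF had no entry.

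Besides SDHD, 7 members had a tested neighbour that starts within 1000 bases on the other strand (GENCODE 44). Next to UQCRH, which fell, LRRC41 was higher (log2 fold change 0.30, limma adjusted p = 0.0264), a call lost without control 2, knockdown 1 or knockdown 2 (adjusted p 0.0656 to 0.133, with 0.23 to 0.38 over all 4 fits that left out 1 library). Next to COX7B, MAGT1 was at a log2 fold change of 0.048 (limma, adjusted p = 0.621). The partners of ATP5F1A, ATP5F1C, ATP5MD, SDHA and UQCR10 (HAUS1, KIN, PDCD11, CCDC127 and ZMAT5) were not called either.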

How the data were processed

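The authors deposited a table of FPKM values for RefSeq transcripts in 4 libraries. In their methods, filtered reads were mapped with HISAT (HISAT2 2.0.5 and hg38 in the submitters' processing notes). The quantifier and annotation release were not given in the sources used here. Low FPKM values showed no steps of whole reads: in 2798 single-transcript genes under 0.5 FPKM in both controls, the most common ratio made up 0.286%. Read depth was therefore unknown.

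Of 29265 entries, 183 without values and 164 without a symbol (0.250% of FPKM) were left out, and transcripts were summed to 16504 symbols. The 10968 genes averaging 1 FPKM or more were fitted as log2(FPKM + 1) in limma 3.58.1 (R 4.3.3), using trended empirical Bayes moderation. Tests were 2-sided, and p-values were adjusted after Benjamini and Hochberg. An adjusted p under 0.05 was called. Such fold changes understate low genes. The study's own test needs read counts, which the table does not hold. The script was tested on simulated data. Groups and replicate numbers came from sample titles.

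Members and lists were chosen with earlier results of these data known. Named with values in every library were complex II, CYC1, CYCS, called members, the most abundant member of each complex and duplicated subunit genes; UQCRC2, UQCRB, COX5B and ATP5F1C were added after their values were seen. In related lists, at most 3 called genes per list were to be named with values. Neighbours and motifs were chosen after values were seen. Positions and promoters were from RefSeq GRCh38.p14. Subunit genes have many processed pseudogenes, and strand use in counting was not stated, so reads shared with copies or overlapping genes could not be separated.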

Additional observations from a re-analysis of the deposited data

How the results depend on the processing

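SDHD was called lower in all 11 gene-level alternatives, between -1.19 and -1.14 on the log2 scale. The number of members called in the main fit was 7, with 2 higher and 5 lower. With no filter on low values it was 2, with 1 higher and 1 lower (4.44% of members against 5.34% of all genes). With columns scaled to one sum it was 14, with 2 higher and 12 lower (31.8% against 24.4%). Without a trend it was 3, with 1 higher and 2 lower (6.82% against 17.2%). With the replicate block it was 13, with 3 higher and 10 lower (29.5% against 31.4%, lower calls 22.7% against 14.8%). The block gained ATP5F1C, ATP5F1E, COX5B, COX7A2 and UQCRB, lower, and ATP5MC1, higher. For single transcripts 1 was called, lower. Median-ratio scaling gave 8 lower. Leaving out each library gave 1 to 5 members, 0 to 2 of them higher and 1 to 4 lower. Over all genes the 2288 calls became 882 with no filter, 3440 with the replicate block, 25 for single transcripts (3213 at an unadjusted p under 0.05), and 825 to 1925 with 1 library left out. No label ties libraries of one number together, so they share only a number (correlation of their deviations 0.101). With no filter 16504 genes were tested, and with 1 library left out 3 libraries remained. Other causes were not tested. Values near 0 turned sign. Under median-ratio scaling and scaling to one sum, respectively, ATP5MG was at -0.0049 and -0.0084, COX6B1 at -0.0010 and -0.0045, COX6C at -0.0091 and -0.013, and UQCRHL at -0.0029 and -0.0062. With 1 library left out the ranges were -0.069 to 0.046 for ATP5F1A, -0.073 to 0.046 for ATP5F1B, -0.092 to 0.12 for ATP5MG, -0.043 to 0.078 for COX6B1, -0.039 to 0.058 for COX6C, -0.020 to 0.090 for COX8A, -0.060 to 0.11 for CYC1, -0.012 to 0.085 for SDHA, -0.078 to 0.060 for UQCRC1, -0.091 to 0.039 for UQCRFS1, -0.092 to 0.12 for UQCRHL and -0.029 to 0.11 for UQCRQ.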
